A study of Neurospora crassa with 12 samples.

Results

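The 100 genes described here gave the most abundant transcripts of *Neurospora crassa* conidia that had germinated for 5 h at 30 °C. They were chosen by their levels. For each library the count of a gene was divided by the library's total and multiplied by 1000000 (CPM), the mean CPM was taken in each of the 4 groups, and the 100 genes of 9730 whose lowest group mean was highest were kept. The groups were the wild type (74A, mating type A) in low-Pi medium (10 µM phosphate) and in high-Pi medium (10 mM phosphate), and a strain labelled as a *mus-52* deletion (mus-52::hyg, mating type a, with hygromycin resistance as its marker) in the same 2 media. Each group held 3 RNA-Seq libraries, numbered I, II and III. *mus-52* encodes the Ku80 subunit of non-homologous end joining, and its transcript was counted in every library. Its mean was 24.4 and 52.3 CPM in the wild type in low- and high-Pi, the latter from 100.2, 34.7 and 21.9 CPM in replicates I, II and III, and 24.8 and 22.9 CPM in the second strain, so those 6 libraries are called the *mus-52*-labelled libraries throughout. As they also have the other mating type, strain and mating type cannot be told apart. The study calls the replicates biological triplicates, and the labels say no more of how they were grown.

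A germinating conidium leaves dormancy, makes ribosomes and proteins, and grows out a hypha at its tip. Messenger RNAs for ribosomal proteins, elongation factors, the plasma membrane proton pump, histones and the ATP synthase are abundant in growing fungal cells, because such proteins are needed in many copies. Heat shock proteins of the Hsp70 family fold new and damaged proteins, and ubiquitin marks proteins for breakdown. The conidiation genes *eas*, *con-6* and *con-10*, which mark the formation of conidia, had group means of at most 6.42, 17.5 and 10.8 CPM, far below any of the 100 genes.

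The libraries held 17574263 to 56152963 counts, with a median of 24109740, and 3 counts, the limit that a count of 0 allows, correspond to 0.0534 to 0.171 CPM, counting error only. The lowest count of any of the 100 genes in any library was 17965. One pair of libraries stood apart. Replicate I of the wild type correlated with the other libraries of its group at 0.931 to 0.952 (Pearson's r across genes, log2 CPM), whereas all other pairs within a group reached at least 0.988. The closest match of its low-Pi library was the *mus-52*-labelled high-Pi replicate I, at 0.971. The counts of calls, and most values between the strains, are therefore given with all libraries and without wild-type replicate I. That replicate was left out because of its distance in these same data, which leaves replicates II and III in the wild-type groups. Leaving it out narrows the spread. An adjusted p without it is therefore not stronger evidence than one with all libraries.

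The 100 genes held between 22.7% and 40.4% of the counts of a library. Their share was 40.4%, 27.0% and 27.0% in wild-type low-Pi replicates I, II and III, and 22.7%, 32.3% and 31.8% in wild-type high-Pi. It was 36.3%, 37.4% and 37.0% in the *mus-52*-labelled libraries in low-Pi, with 39.3%, 39.4% and 39.0% for high-Pi. Within the wild type the highest and the lowest shares were both in replicate I, in opposite media, and the other 4 wild-type libraries lay below all 6 *mus-52*-labelled libraries. The group means were 31.5 ± 7.74% and 28.9 ± 5.38% for the wild type in low- and high-Pi, and 36.9 ± 0.565% and 39.3 ± 0.205% for the *mus-52*-labelled libraries (SD, n = 3). Without replicate I the wild-type means were 27.0% and 32.0%. These shares are part of how the genes were chosen and were not tested.

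**Figure D1:**
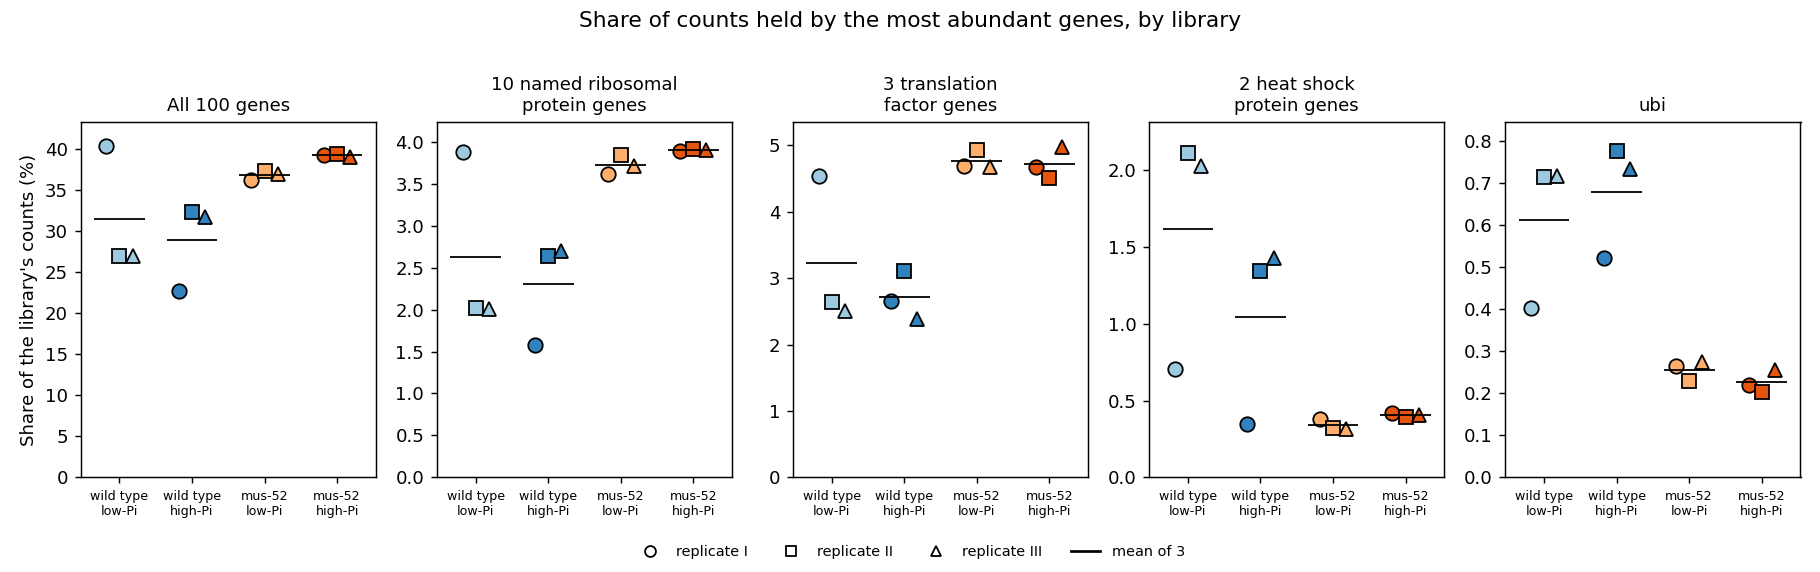
Share of each library's counts (%, vertical axes starting at 0) held by all 100 genes and by 4 of their groups, by strain and medium; points are libraries, shaped by replicate number, and lines are means of 3. Wild-type replicate I (circles) lay above replicates II and III in low-Pi (40.4% against 27.0% and 27.0%) and below them in high-Pi (22.7% against 32.3% and 31.8%) for all 100 genes, while the 6 mus-52-labelled libraries lay between 36.3% and 39.4%.

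Counts were concentrated in the first few genes. *tef-1* alone held 2.60% and 2.17% of the counts in the wild type in low- and high-Pi and 3.89% and 3.85% in the *mus-52*-labelled libraries. The first 10 genes held 7.65%, 7.12%, 9.64% and 10.2% in the same order. The genes ranked 98 to 100 had lowest group means of 1286, 1275 and 1254 CPM (NCU01948, NCU10498 and *tca-3*), and the next 3, left out, had 1233, 1205 and 1190 CPM (NCU08963, NCU08183 and NCU06226). The boundary thus fell within a smooth series of levels. In all, 38 of the 100 genes were among the 100 highest of every single library.

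The most abundant transcript was that of *tef-1* (NCU02003, chromosome I, 1711539 to 1714654 of the NC12 assembly), which encodes elongation factor eEF1A, the protein that brings aminoacyl-tRNA to the ribosome. It was at 36341, 21479 and 20174 CPM in wild-type low-Pi replicates I, II and III and at 22317, 24602 and 18222 CPM in wild-type high-Pi. In the *mus-52*-labelled libraries it was at 38348, 40634 and 37841 CPM in low-Pi and at 38056, 36631 and 40942 CPM in high-Pi. All 6 of these lay above all 6 wild-type values, and the nearest wild-type value was that of low-Pi replicate I. Per kilobase of gene length *tef-1* was also first, at 6969 CPM per kb in its lowest group.

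The gene ranked second, NCU16635, was the only gene of the tables with no entry in the reference annotation, so neither its position nor its product can be given. It was at 15911, 7157 and 7138 CPM in wild-type low-Pi and at 7059, 15025 and 14170 CPM in wild-type high-Pi. With the *mus-52* label it was at 8288, 8948 and 10172 CPM in low-Pi and at 12495, 12403 and 10475 CPM in high-Pi. In the latter strain all high-Pi libraries lay above all low-Pi libraries, and in the wild type the same held for replicates II and III but was turned in replicate I.

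*pma-1* (NCU01680, chromosome II, 2725887 to 2729848), ranked 3, encodes the proton-pumping ATPase of the plasma membrane, which drives nutrient uptake. It was at 8224, 7262 and 7057 CPM in wild-type low-Pi and lower, at 4664, 6440 and 5006 CPM, in wild-type high-Pi. In the *mus-52*-labelled libraries it ranged from 7296 to 8448 CPM over both media. The wild-type groups did not overlap, but the fitted difference did not pass the test (log2 fold change −0.61 ± 0.26 (SE), adjusted p = 0.347, edgeR's quasi-likelihood test). *pdx-1* (NCU06550, chromosome IV, 1608205 to 1609701), ranked 4, encodes an enzyme of vitamin B6 synthesis and ranged from 3900 to 7886 CPM over the 12 libraries.

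Ranks 5 to 9 were genes with no symbol. They were NCU00979 (chromosome I, 6513544 to 6514647), NCU02181 (chromosome I, 955540 to 957970), NCU00294 (chromosome III, 3342912 to 3344448), NCU05804 (chromosome VII, 3891401 to 3894015) and NCU06432 (chromosome III, 1398867 to 1400292). Of these, NCU00979 was the most variable in the wild type, at 8739, 3065 and 3168 CPM in low-Pi and 2893, 6977 and 5066 CPM in high-Pi. With the *mus-52* label it was at 5583, 5878 and 7122 CPM in low-Pi and 7496, 7511 and 6523 CPM in high-Pi. It was second per kilobase, at 4510 CPM per kb. Its replicate I values lay on the opposite side of replicates II and III in the 2 wild-type media.

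*hH3* (NCU01635, chromosome II, 2874241 to 2875647), ranked 10, encodes histone H3, a core protein of the nucleosome. It was at 4412, 3571 and 3904 CPM in wild-type low-Pi and 5055, 3524 and 4007 CPM in wild-type high-Pi. In the *mus-52*-labelled libraries it was at 4476, 4576 and 4580 CPM in low-Pi and 4256, 4392 and 4252 CPM in high-Pi. Its highest library was 1.43 times its lowest, and only NCU00811, at 1.33 times, was steadier among the 100 genes. The next steadiest were the histone gene *hH2B* at 1.46 times, *am* at 1.59 times and *atp-1* at 1.62 times. The median gene of the 100 ranged 2.60-fold over the 12 libraries, and the widest ranges were those of *hsp70-1* (9.89-fold), *hsp70-5* (5.46-fold) and NCU04583 (4.85-fold).

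**Figure D2:**
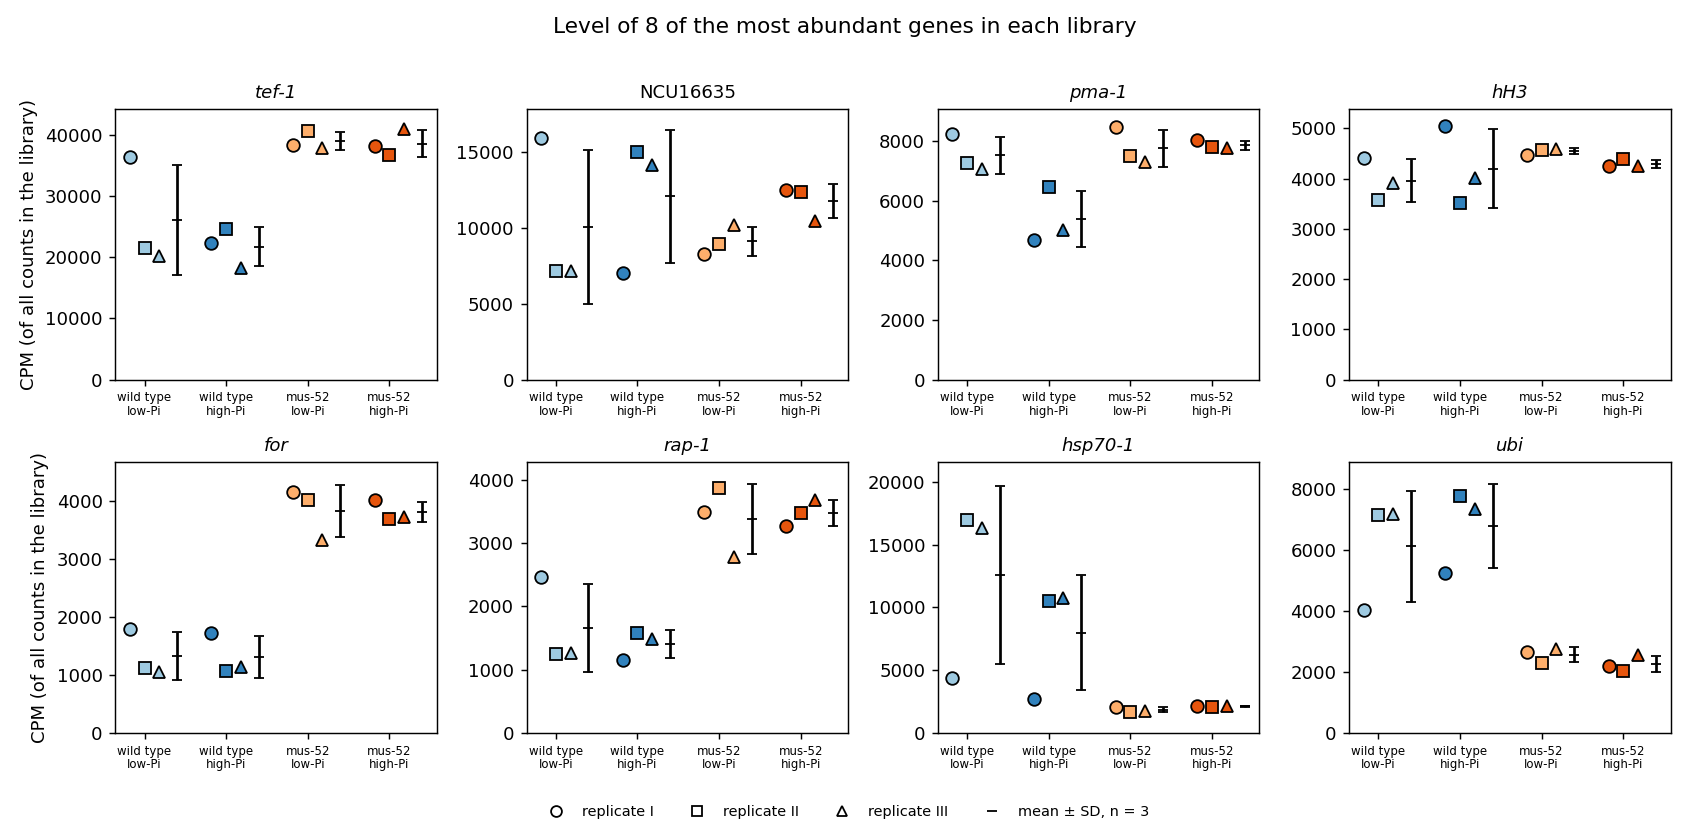
Level in CPM (vertical axes starting at 0) of 8 of the 100 genes in each library, by strain and medium; points are libraries, shaped by replicate number, and bars are the mean ± SD of 3. The 6 mus-52-labelled libraries lay above all wild-type libraries for *tef-1* and *for* and below all of them for *hsp70-1* and *ubi*, while *hH3* stayed between 3524 and 5055 CPM.

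By function, 46 of the 100 genes had a symbol or a product named by the study, and 54 had neither. A symbol was held by 42% of the 100 genes and by 11.49% of all genes. The named genes fell mostly into protein synthesis, mitochondrial energy supply, and nitrogen and amino acid metabolism. For each group the shares below are means of the CPM shares, a description of how the genes were chosen. Genes were placed in a group by symbol or named product only. The genes with neither, and named genes placed in none of these groups (*rap-1* and *un-25* among them), are left out of the shares. A group may therefore hold only part of the abundant genes of its function.

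Among the genes so placed, protein synthesis was represented by 10 ribosomal protein genes and 3 translation factor genes. The ribosomal protein genes were *crp-10*, *cyh-2* (the cycloheximide-resistance gene), *un-16*, *crp-4*, *crp-5*, *crp-3*, *crp-15*, NCU01452, NCU08964 and NCU03038, the last 3 named by the study as proteins of the small and large subunits. Together they held 2.63% and 2.31% of counts in the wild type in low- and high-Pi and 3.72% and 3.90% in the *mus-52*-labelled libraries. Without replicate I the wild-type low-Pi share was 2.01%. *crp-10* (NCU00489, chromosome III, 4036484 to 4038686), the most abundant of them, was at 5951, 2801 and 2823 CPM in wild-type low-Pi and 2480, 3505 and 3934 CPM in wild-type high-Pi. It was at 6019, 6700 and 5703 CPM in the *mus-52*-labelled libraries in low-Pi and 6704, 6487 and 6421 CPM in high-Pi, and in low-Pi only wild-type replicate I reached that range. The translation factors were *tef-1*, *cot-3* (NCU07700), which encodes elongation factor eEF2 that moves the ribosome along the message, and *eif5A* (NCU05274), whose product promotes peptide bond formation. They held 3.23%, 2.72%, 4.76% and 4.72% in the same order of groups, most of it *tef-1*.

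Mitochondrial energy supply and import was represented by 7 of the genes placed by name. These were *oli*, *atp-1* and *atp-2*, which encode subunits c, alpha and beta of the ATP synthase, *aac* (the ADP/ATP carrier), *cyc-1* (cytochrome c), *pep* (a subunit of the processing peptidase that trims imported proteins) and *tca-3* (aconitase). They held 1.95% and 1.72% of counts in the wild type in low- and high-Pi and 1.51% and 2.13% in the *mus-52*-labelled libraries. *cyc-1* (NCU01808) differed between the media in opposite directions in wild-type replicate I and in the other libraries. It was at 1633, 1466 and 1618 CPM in the *mus-52*-labelled libraries in low-Pi and 3359, 3208 and 2390 CPM in high-Pi, and at 3905, 2244 and 2218 CPM in wild-type low-Pi and 1641, 3375 and 3562 CPM in wild-type high-Pi. With the *mus-52* label and in wild-type replicates II and III every high-Pi value lay above every low-Pi value, and in wild-type replicate I the order was the reverse.

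Nitrogen and amino acid metabolism was represented by 9 of the genes placed by name. They were *am* (NADP-dependent glutamate dehydrogenase) and *gln-1* (glutamine synthetase), which assimilate ammonium, *nit-3* (nitrate reductase) and *nit-10*, *arg-3* (the large subunit of carbamoyl phosphate synthetase for arginine), *met-8* (methionine synthesis), *for* (serine hydroxymethyltransferase, which supplies one-carbon units), and *cpc-1* and *cpc-2*, which act in cross-pathway control of amino acid synthesis. Their share of counts was 2.01% and 1.92% in the wild type in low- and high-Pi, and 2.98% and 2.80% with the *mus-52* label. *nit-3* (NCU05298, chromosome IV, 5420216 to 5423422) was at 1663, 2084 and 1975 CPM in wild-type low-Pi and 3141, 1154 and 848 CPM in wild-type high-Pi. It was at 1485 to 1919 CPM in all 6 *mus-52*-labelled libraries. The high-Pi wild-type libraries thus held both its highest and its lowest value.

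The remaining named genes were few in each role. The 3 histone genes *hH3*, *hH2B* and *hH2A* held 0.790%, 0.828%, 0.841% and 0.863% of counts in the 4 groups, the narrowest span of any group with more than 1 gene. The 2 heat shock genes *hsp70-1* and *hsp70-5* held 1.62% and 1.04% in the wild type in low- and high-Pi and 0.341% and 0.405% in the *mus-52*-labelled libraries. The single ubiquitin gene *ubi* held 0.611%, 0.678%, 0.257% and 0.227%. Among the others were *gpd-1* (glyceraldehyde-3-phosphate dehydrogenase), *ena-1* (a sodium-pumping ATPase), *inl* (inositol phosphate synthase), *hex-1* (the core protein of the Woronin body, which plugs septal pores), *acw-9* (an anchored cell wall protein) and *ccg-6* (a clock-controlled gene). The levels of *inl* were 1542 to 3131 CPM and those of *hex-1* 1493 to 2648 CPM over the 12 libraries.

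The abundant genes were spread over all 7 chromosomes. Of the 99 with a position, 26 were on chromosome I, 17 on II, 12 on III, 6 on IV, 22 on V, 6 on VI and 10 on VII, and the shares of all genes on these chromosomes were 24.1%, 10.6%, 12.9%, 15.3%, 16.2%, 10.2% and 10.8%. There were 5 pairs of direct neighbours, the closest being *un-16* and NCU01948, 77 bp apart on chromosome I. NCU09475, NCU09476 and *aac* followed each other on chromosome II with gaps of 86 and 2443 bp. The median gene length was 1985 bp, and that of all genes was 2129 bp. A list chosen by CPM per kilobase shared 86 of the 100 genes.

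The list omits genes that the counting reached poorly. In the reference annotation 898 genes of the tables (9.23%) had more than 1 transcript, and their median total over the 12 libraries was 34 counts, against 7468 for genes with 1 transcript. Just 1 of them, *aac*, was among the first 1000 genes. The actin gene *act* (NCU04173), a qPCR reference of the study with 2 annotated transcripts, had 3 counts over all 12 libraries, whereas the beta-tubulin gene *Bml* (NCU04054), the other reference, ranked 168 with group means of 671 to 811 CPM. Of the 99 members with a position, 40 overlapped another annotated gene, as did 23.7% of all genes, and whether reads were counted by strand is not given in the sources used here. Levels of these 40 genes, *pma-1*, *pdx-1* and *crp-10* among them, may therefore include reads of the overlapping gene.

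Some genes were among the highest of a group and missed the list. Of the 100 highest genes by mean CPM in wild-type low-Pi, wild-type high-Pi, and the *mus-52*-labelled libraries in low- and high-Pi, 22, 22, 17 and 13 were not among the 100 genes. The highest of them in wild-type low-Pi was *hsp98* (NCU00104), a disaggregating chaperone of the heat shock response, at 7923 ± 5556 CPM (SD, n = 3). Its mean was 5003 CPM in wild-type high-Pi and 110 and 91.0 CPM in the *mus-52*-labelled libraries in low- and high-Pi.

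Replicate I of the wild type differed from replicates II and III across most of the 100 genes. In low-Pi it lay above both others for 82 genes and in high-Pi below both for 79, and 69 genes did both. All 10 ribosomal protein genes were among the 69, and none of the 2 heat shock and 3 histone genes was. In terms of the medium, 15 of the 100 genes had a higher CPM in high-Pi than in low-Pi in replicate I, against 75 in replicate II and 78 in replicate III, and 72 genes moved in replicate I against the direction shared by II and III. In the *mus-52*-labelled libraries the numbers were 68, 68 and 72. These counts are on the CPM scale of column totals, and the same counts over all genes are not given. They do not show whether the shift of replicate I is particular to the 100 genes. The median coefficient of variation of the 100 genes was 36.0% and 28.7% in the wild type in low- and high-Pi and 8.45% and 4.74% in the *mus-52*-labelled libraries, and that of all tested genes was 28.5%, 33.6%, 9.76% and 10.1%. Correlation across genes separated the wild-type media little, as low-Pi replicate II reached 0.984 with high-Pi replicate II and 0.993 with low-Pi replicate III. Of the 2 replicate I libraries, the low-Pi one lay nearest to the *mus-52*-labelled libraries. The low-Pi one reached 0.941 and 0.930 with high-Pi replicates II and III and 0.933 and 0.931 with its own, and the high-Pi one reached 0.946 and 0.943 with low-Pi replicates II and III and 0.952 and 0.941 with its own. Whether the 2 libraries carry each other's label was not tested, and the labels were kept as given.

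**Figure D3:**
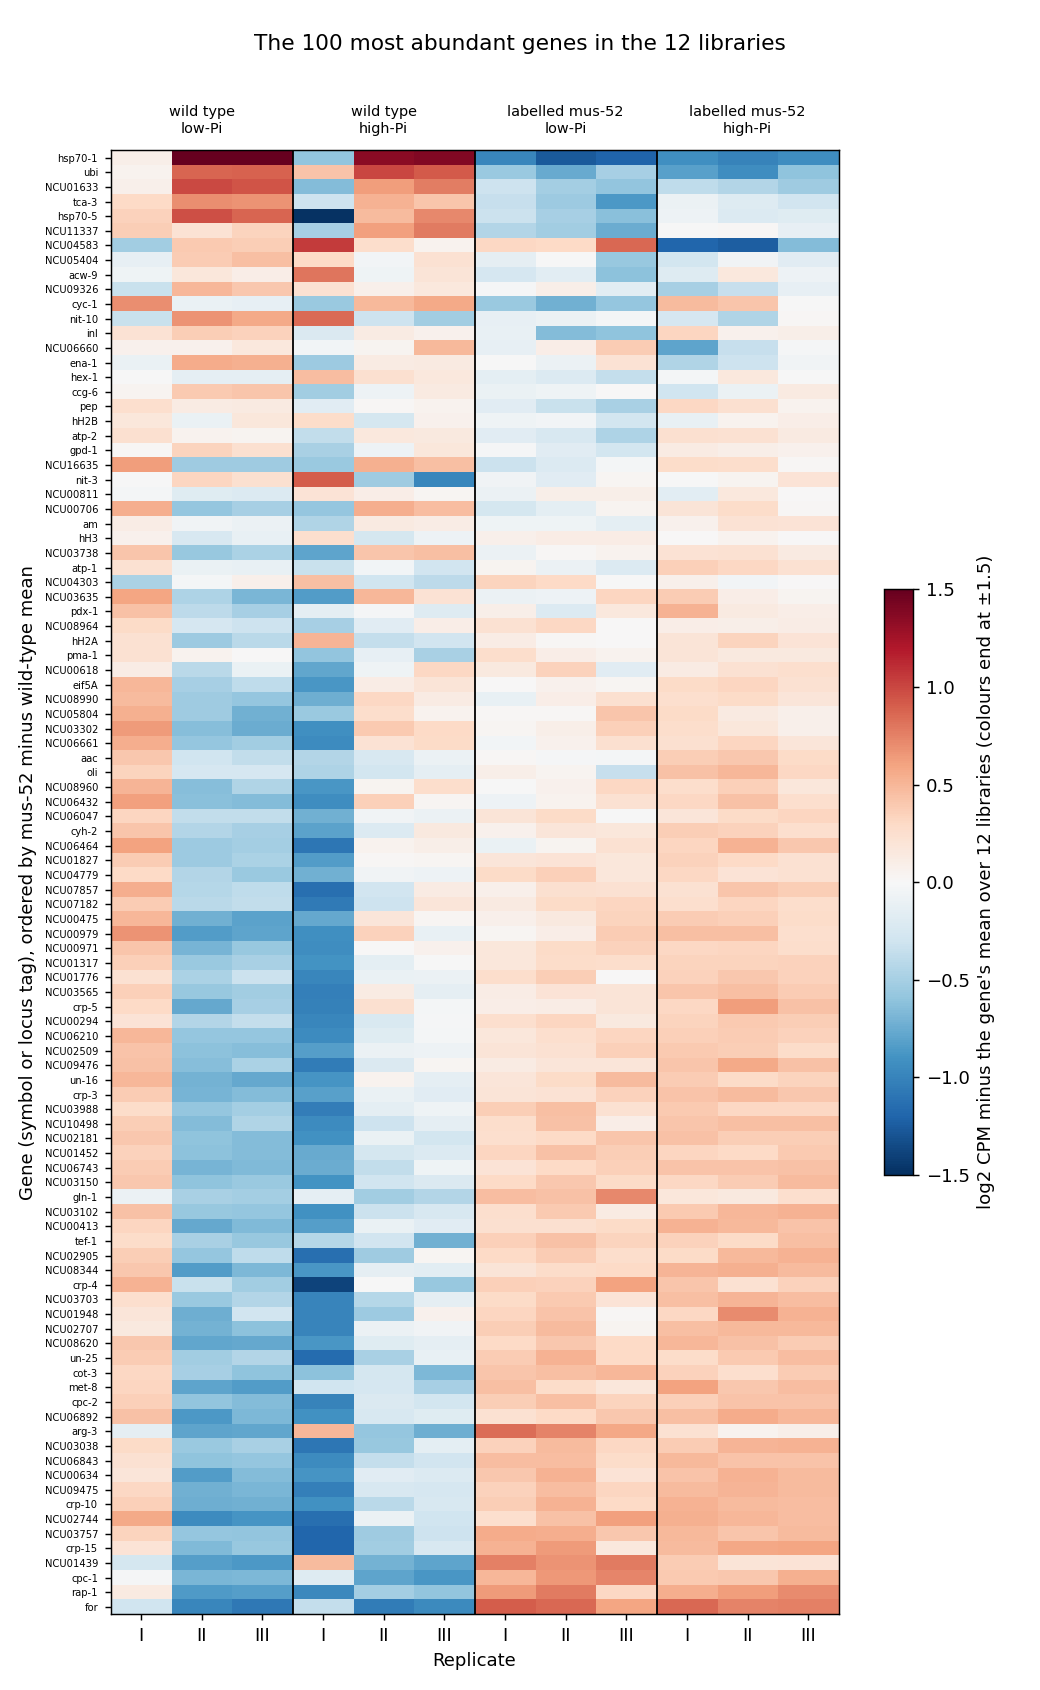
Log2 CPM of each of the 100 genes in the 12 libraries, centred on the gene's mean over all libraries (colour scale ends at ±1.5), with genes ordered by the difference between the strains. Wild-type replicate I is high for 82 genes in low-Pi and low for 79 in high-Pi relative to replicates II and III, and *hsp70-1* and *ubi* head the genes lower in the mus-52-labelled libraries, with *for* at the other end.

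The comparison of media asked which genes respond to phosphate in each strain. Counts were compared in a single fit of the 12 libraries on the TMM scale, which sets each library by the bulk of its genes and not by its total, so that fold changes need not equal ratios of CPM. A gene was called at an adjusted p of at most 0.05, and was a differentially expressed gene (DEG) if its log2 fold change also reached 1.5 upward or downward. One of the 100, NCU04583, is listed by the study as dependent on mating type and was tested but not counted, which leaves 99. The rule fixed which genes could be counted, since a gene must be high in all 4 groups to be among them, so nothing is read from the number of calls.

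In the wild type none of the 99 genes was called in high-Pi against low-Pi, either by edgeR's quasi-likelihood test or by DESeq2, and 1, *pma-1*, had an unadjusted p under 0.05. Over all genes 0.357% were called higher, 0.0397% lower and 0.198% were DEGs. The median log2 fold change of the 99 genes was −0.24, with a range of −0.67 to 0.22, and that of all tested genes was −0.05. Leaving out replicate I in both media turned the sign of that median to 0.35, with 45 genes called higher and 3 lower, against 7.09% and 8.66% of all genes. The median also turned when one of these libraries was left out alone, to 0.09 without low-Pi replicate I and 0.02 without high-Pi replicate I. Without replicate I, 6 of the 10 ribosomal protein genes were called higher, such as *crp-5* (log2 fold change 0.77, adjusted p = 0.00124) and *un-16* (0.72, adjusted p = 0.00129). The 3 called lower were *nit-10* (−1.01, adjusted p = 0.000253), *nit-3* (−0.996, adjusted p = 0.000278) and *hsp70-1* (−0.62, adjusted p = 0.00173, all by edgeR).

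In the *mus-52*-labelled libraries none of the 99 genes was called in high-Pi against low-Pi by edgeR or DESeq2, and 4 (*inl*, *cyc-1*, *pep* and *arg-3*) had an unadjusted p under 0.05. Over all genes 0.225% were called higher, 4.29% lower and 2.43% were DEGs. The median log2 fold change was 0.12 for the 99 genes and −0.00 for all genes. In this fit the spread was shared with the wild type. When wild-type replicate I was left out, which leaves these 6 libraries in place, 22 genes were called higher and 4 lower, against 15.9% and 16.9% of all genes. A fit of the 6 libraries alone called 21 and 3, for which the share of all genes is not given. Without wild-type replicate I all 7 of the energy and import genes were called higher, among them *cyc-1* (0.95, adjusted p = 2.2e-05), *pep* (0.55, adjusted p = 0.000782) and *atp-2* (0.51, adjusted p = 0.000792, edgeR). The 4 called lower were *arg-3* (−0.58, adjusted p = 0.000367, edgeR), NCU01439, *gln-1* and *ena-1*. With all libraries the values of *cyc-1*, *pep*, *atp-2* and *arg-3* were 0.93 ± 0.40, 0.53 ± 0.23, 0.49 ± 0.27 and −0.60 ± 0.26 (SE), and none passed the test.

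Of the wider list of ATP synthase, respiratory, TCA cycle and import genes fixed beside the 100, 70 of 73 were tested. None was called in either strain for the medium with all libraries, and without wild-type replicate I 48 were called higher and 0 lower in the *mus-52*-labelled libraries, against 9 higher and 0 lower in the wild type. Of all genes 15.9% were then called higher and 16.9% lower in the *mus-52*-labelled libraries, and 7.09% and 8.66% in the wild type. The median log2 fold change of the list in the *mus-52*-labelled libraries was 0.37 with all libraries and 0.40 without wild-type replicate I.

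The response to the medium was then compared between the strains (the interaction of strain and Pi, the log2 fold change for high-Pi in the *mus-52*-labelled libraries minus that in the wild type). None of the 99 genes passed by edgeR, 3 (*inl*, *pep* and *atp-1*) had an unadjusted p under 0.05, and DESeq2 called 2 of these higher, *inl* and *pep*. Over all genes 0.675% passed higher, 5.09% lower and 4.06% as DEGs. The median was 0.37 for the 99 genes and 0.06 for all genes. Without wild-type replicate I it was −0.26, with 9 genes higher and 24 lower, against 12.2% and 12.9% of all genes. The sign of the median interaction thus depended on replicate I of the wild type. The interactions of *inl*, *pep* and *atp-1* stayed positive without that replicate, at 0.87, 0.62 and 0.43.

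The gene left out of the counts, NCU04583, named by the study as an acetyltransferase, did pass. It was at 1869, 3509 and 3449 CPM in wild-type low-Pi and 5538, 3217 and 2776 CPM in wild-type high-Pi. With the *mus-52* label it was at 3334, 3308 and 4871 CPM in low-Pi and 1176, 1141 and 1704 CPM in high-Pi, so that all high-Pi libraries of this strain lay below all other libraries. Its log2 fold change for high-Pi was −1.52 ± 0.30 in the *mus-52*-labelled libraries (adjusted p = 0.0137) and 0.18 ± 0.29 in the wild type (adjusted p = 0.841), and the interaction was −1.70 ± 0.41 (SE, adjusted p = 0.0348, edgeR's quasi-likelihood test). Without wild-type replicate I the interaction was −1.31 (adjusted p = 0.00439).

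The comparison of strains asked how the *mus-52*-labelled libraries differed from the wild type in each medium. In low-Pi, 5 of the 99 genes were called higher and 6 lower, against 17.7% and 19.9% of all genes, and 1 was a DEG, against 12.1%. In high-Pi, 12 were called higher and 2 lower, against 23.2% and 24.5% of all genes, and 3 were DEGs, against 17.5%. The median log2 fold changes were 0.19 and 0.54 in low- and high-Pi, and those of all genes were 0.07 and −0.01. Without wild-type replicate I, 66 genes were called higher and 20 lower in low-Pi, against 36.6% and 35% of all genes, and 49 higher and 17 lower in high-Pi, against 34.7% and 35.3%. The medians were then 0.55 and 0.23. Of the 11 calls in low-Pi 6 held in all 15 alternatives, and of the 14 in high-Pi 4 did. With the replicate number as a block 10 and 6 of them held. Same-numbered libraries of the 2 strains did not deviate together (correlations of −0.134 to −0.0172), and the labels do not tie them. The 2 comparisons share no library. On column totals in place of TMM the median of all genes moved to 0.20 in low-Pi, to −0.08 in high-Pi and, for the medium in the wild type, to 0.13, and the medians of the 99 genes were 0.33, 0.54 and −0.13 on that scale.

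The largest increase in both media was that of *for*, a gene of one-carbon metabolism. *for* (NCU02274, chromosome VII, 3099945 to 3102584), ranked 96, was at 1804, 1125 and 1052 CPM in wild-type low-Pi and 1732, 1076 and 1139 CPM in wild-type high-Pi. In the *mus-52*-labelled libraries it was at 4165, 4030 and 3332 CPM in low-Pi and 4025, 3702 and 3729 CPM in high-Pi, with every value above every wild-type value. It rose 2.63-fold in low-Pi (log2 fold change 1.40 ± 0.25, adjusted p = 0.00313) and 3.05-fold in high-Pi (1.61 ± 0.25, adjusted p = 0.00105, edgeR). Its values without wild-type replicate I were 1.65 and 1.62, and the call held in all 15 alternatives for each medium.

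*cpc-1* (NCU04050), which encodes the bZIP activator of amino acid synthesis genes, rose in both media, by a log2 fold change of 0.92 ± 0.24 in low-Pi (adjusted p = 0.0137) and 1.11 ± 0.24 in high-Pi (adjusted p = 0.00469, edgeR). Its *mus-52*-labelled libraries were at 3896 to 4902 CPM and its wild-type libraries at 1614 to 2936 CPM. The low-Pi call was lost in 4 alternatives, each leaving out 1 library, and without wild-type replicate I the values were 1.14 and 1.11. *gln-1* also passed in both, at 0.76 ± 0.22 (adjusted p = 0.0188) and 0.59 ± 0.21 (adjusted p = 0.0398), and at 0.88 and 0.50 without wild-type replicate I, but lost the call in 5 and 8 of 15 alternatives. *arg-3* (NCU02677, chromosome I, 3170235 to 3175788) rose in low-Pi, by 1.12 ± 0.27 (adjusted p = 0.00954), from 1888, 1197 and 1206 CPM to 3708, 3470 and 3107 CPM. In high-Pi its value was 0.41 ± 0.26 (adjusted p = 0.217), where the wild-type libraries were at 2918, 1385 and 1244 CPM and those labelled *mus-52* at 2432, 2144 and 2202 CPM. In that medium the groups overlapped through wild-type replicate I. Without it *arg-3* passed in both media, at 1.34 (adjusted p = 1.6e-08) and 0.61 (adjusted p = 0.000108). NCU01439, a gene with no name on chromosome V (4742527 to 4745460), rose in low-Pi by 1.23 ± 0.27 (adjusted p = 0.00658, edgeR), from 1737, 1178 and 1143 CPM to 3507, 3328 and 3587 CPM, and its value was 1.41 without wild-type replicate I.

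Of the wider list of 30 nitrogen and amino acid genes, 28 were tested, and 7 were called higher and 4 lower in low-Pi and 9 higher and 6 lower in high-Pi, with median log2 fold changes of 0.28 and 0.20. The shares of all genes called higher and lower were 17.7% and 19.9% in the low-Pi comparison and 23.2% and 24.5% in the other. The list without wild-type replicate I had 10 higher and 7 lower in low-Pi and 13 higher and 7 lower in high-Pi, with medians of 0.18 and 0.12. The 9 genes among the 100 had medians of 0.49 and 0.59, and of 0.88 and 0.61 without it.

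With all libraries 2 of the 10 ribosomal protein genes and 2 of the 3 translation factor genes passed in high-Pi, and none in low-Pi. They were *tef-1* (0.85 ± 0.31, adjusted p = 0.0421), *cot-3* (0.84 ± 0.31, adjusted p = 0.0396), *crp-15* (NCU00258, chromosome III, 3196778 to 3199310; 1.12 ± 0.37, adjusted p = 0.0261) and NCU03038 (0.99 ± 0.36, adjusted p = 0.0381, edgeR). The labels do not tie same-numbered libraries across the strains. With the replicate number as a block *tef-1*, *cot-3* and NCU03038 no longer passed (adjusted p = 0.0817, 0.0696 and 0.061, edgeR), and they lost the call in 7, 6 and 7 of 15 alternatives. The 4 values were 0.68, 0.61, 0.76 and 0.64 without wild-type replicate I, and all passed. *crp-15* was at 872, 1378 and 1677 CPM in wild-type high-Pi and 2767, 2978 and 2993 CPM in the *mus-52*-labelled libraries, and it lost the call in 4 of 15 alternatives, each leaving out 1 high-Pi library (wild-type replicate II or any of those with the *mus-52* label), with values of 1.10 to 1.20. The other 8 ribosomal protein genes did not pass in high-Pi, with values of 0.26 to 0.96. In low-Pi none of the 10 passed, with values of 0.12 to 0.60, and without wild-type replicate I all 10 were called higher in low-Pi, with a median of 0.75, and 6 in high-Pi, with a median of 0.40. The 3 translation factor genes were then called higher in low-Pi and 2 of them in high-Pi. Of the wider list of 16 ribosomal protein genes, 14 were tested, of which 2 were called higher in low-Pi and 4 in high-Pi and none lower, and without wild-type replicate I 14 and 10 were called higher. Of all genes 17.7% and 23.2% were called higher in low- and high-Pi with all libraries, and 19.9% and 24.5% lower. Without wild-type replicate I 36.6% and 34.7% of all genes were called higher. *rap-1* (NCU03393, chromosome II, 863476 to 865793) rose in high-Pi by 1.30 ± 0.34 (adjusted p = 0.0102, edgeR), from 1150, 1576 and 1488 CPM to 3272, 3480 and 3684 CPM, and was at 1.01 without wild-type replicate I.

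**Figure D4:**
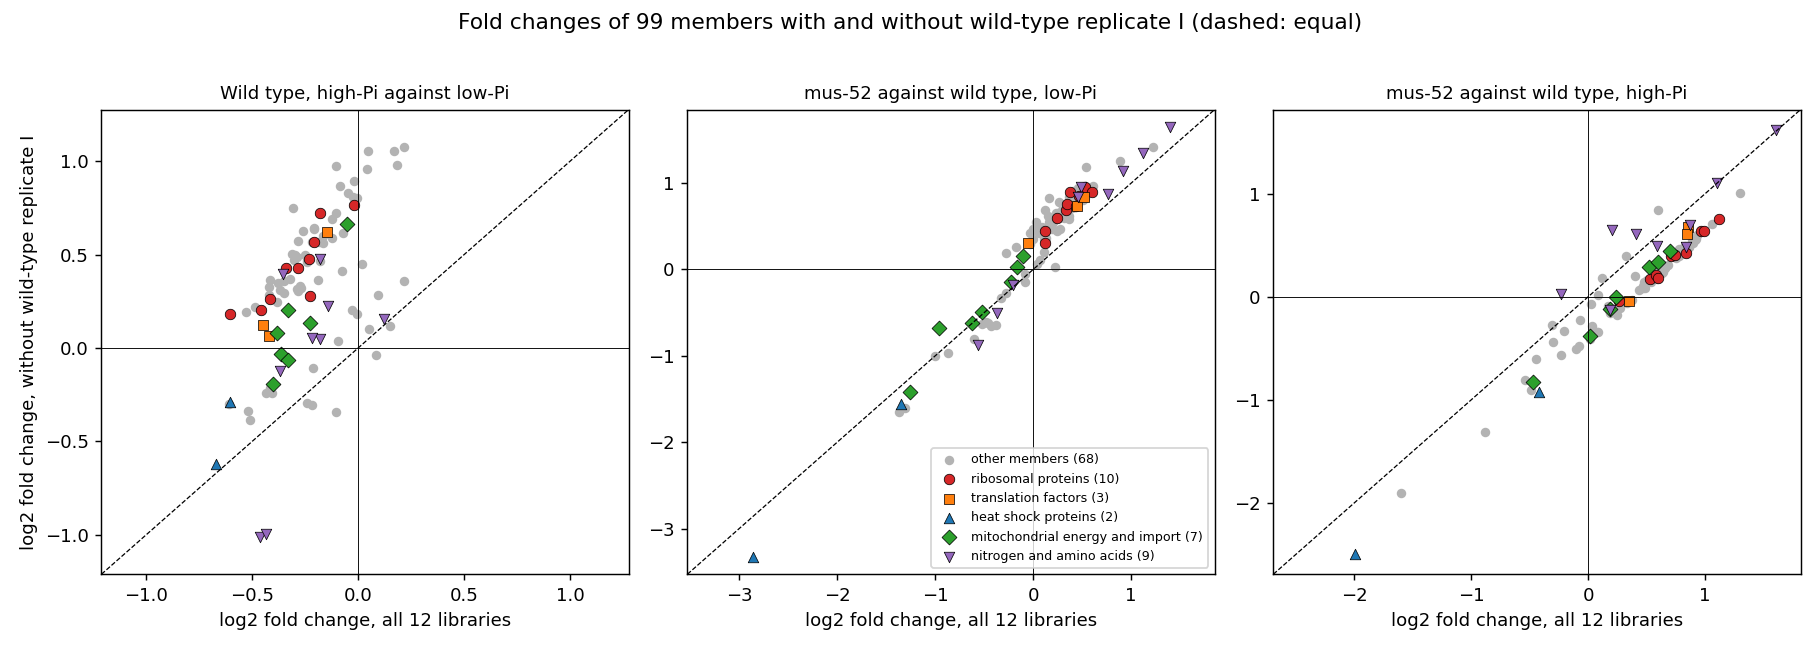
Log2 fold change of each of 99 genes in 3 comparisons, fitted with all 12 libraries (horizontal axes) and without wild-type replicate I in both media (vertical axes); the dashed line marks equal values and symbols mark groups of genes. In the wild type most genes lie below 0 with all libraries (median −0.24) and above 0 without replicate I (median 0.35), whereas *hsp70-1* lies lowest in both strain comparisons with either set.

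The chaperone and ubiquitin genes had the largest decreases. *hsp70-1* (NCU09602, chromosome II, 79724 to 82693), which encodes a heat shock protein of the Hsp70 family, was at 4367, 16949 and 16335 CPM in wild-type low-Pi and 2721, 10488 and 10762 CPM in wild-type high-Pi. With the *mus-52* label it was at 2081, 1714 and 1789 CPM in low-Pi and 2165, 2053 and 2156 CPM in high-Pi. All of these lay below the wild type, and wild-type replicate I was the nearest in both media. Its log2 fold change was −2.86 ± 0.62 in low-Pi (adjusted p = 0.00659), 7.26-fold lower, and −1.99 ± 0.60 in high-Pi (adjusted p = 0.0181, edgeR), 3.98-fold lower. Without wild-type replicate I the values were −3.33 and −2.49. The high-Pi call was lost in 5 of 15 alternatives, each leaving out 1 library (wild-type high-Pi replicate II or III or any of the *mus-52*-labelled libraries), with values of −1.66 to −2.03.

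*ubi* (NCU05995, chromosome VI, 3145044 to 3147583) was at 4025, 7135 and 7173 CPM in wild-type low-Pi and 5224, 7765 and 7342 CPM in wild-type high-Pi. It was at 2648, 2294 and 2755 CPM in the *mus-52*-labelled libraries in low-Pi and 2207, 2037 and 2556 CPM in high-Pi, again below every wild-type library. It fell by 1.37 ± 0.32 on the log2 scale in low-Pi (adjusted p = 0.00847) and by 1.60 ± 0.32 in high-Pi (adjusted p = 0.00329, edgeR), and kept both calls in all 15 alternatives. Its values without wild-type replicate I were −1.65 and −1.91. In bulk RNA, less transcript per cell and fewer cells in a given state cannot be told apart.

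*hsp70-5*, the other Hsp70 gene, had values of −1.35 ± 0.50 in low-Pi (adjusted p = 0.0528) and −0.42 ± 0.49 in high-Pi (adjusted p = 0.493), neither past the threshold with all libraries. Both passed without wild-type replicate I, at −1.56 (adjusted p = 2.4e-09) and −0.93 (adjusted p = 1.6e-06, edgeR). Of the wider list of 11 heat shock genes, all tested, 7 were called lower and 0 higher in low-Pi, and 7 lower and 1 higher in high-Pi, with medians of −2.09 and −1.68. Without wild-type replicate I, 10 were called lower and 1 higher in each medium. Of all genes, 19.9% and 24.5% were called lower and 17.7% and 23.2% higher in low- and high-Pi with all libraries. Without wild-type replicate I these shares were 35% and 35.3% lower and 36.6% and 34.7% higher.

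The other genes called lower in low-Pi were NCU01633 (chromosome II, 2887726 to 2890393; −1.31 ± 0.42, adjusted p = 0.03), *tca-3* (−1.26 ± 0.32, adjusted p = 0.0118), NCU11337 (−0.997 ± 0.36, adjusted p = 0.0494) and *inl* (−0.87 ± 0.26, adjusted p = 0.0227, edgeR). NCU01633 was at 2098, 3937 and 3831 CPM in wild-type low-Pi and 1607, 1397 and 1319 CPM in the *mus-52*-labelled libraries, and it lost the call in 5 of 15 alternatives, each leaving out 1 library (any *mus-52*-labelled low-Pi library, or replicate II or III of the wild type). *tca-3* was at 2281, 3018 and 2963 CPM against 1466, 1276 and 1021 CPM, and kept the call in all 15 alternatives. The wild-type replicate I values of NCU01633 and *tca-3* were the lowest of their group and still above all *mus-52*-labelled libraries. NCU11337 lost it in 8, the replicate block among them (adjusted p = 0.0669, edgeR), and *inl* in 4. The values of NCU01633, *tca-3*, NCU11337 and *inl* without wild-type replicate I were −1.60, −1.42, −1.01 and −0.96.

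*hH3* passed in none of these comparisons, with or without wild-type replicate I. It had log2 fold changes of 0.07 ± 0.20 and 0.09 ± 0.20 between the strains in low- and high-Pi, and of −0.10 ± 0.20 and −0.08 ± 0.20 between the media in the wild type and the *mus-52*-labelled libraries. Of the wider list of 9 histone genes, 8 were tested, and 2 were called higher and 1 lower in each medium between the strains, where the shares of all genes were those given above. Leaving out wild-type replicate I gave 5 higher and 2 lower in low-Pi and 5 higher and 1 lower in high-Pi. *pma-1* had −0.08 ± 0.26 and 0.55 ± 0.26 between the strains in low- and high-Pi (adjusted p = 0.809 and 0.0994, edgeR), and neither passed. They were −0.05 (adjusted p = 0.672) and 0.29 (adjusted p = 0.0299, edgeR) without wild-type replicate I, the latter past the threshold.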

How the data were processed

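RNA-Seq of 12 *N. crassa* libraries was analysed from the tables of gene counts that the authors deposited, whole-number counts per gene, not normalized. The submitters' processing notes name FastQC 0.11.2, Bowtie2 2.1.0 and DESeq 1.28.0, and the study aligned reads to NC12. The tool that made the counts is not given in the sources used here. Other deposited tables hold the authors' DESeq comparisons and were not used. CPM was computed on column totals of all 9730 genes. Symbols and positions came from a RefSeq table of NC12 (9729 genes matched). Members and gene lists were chosen with earlier results of these data known, and no sequence features were examined.

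Genes were filtered with filterByExpr (7746 tested), scaled by TMM and fitted in 4 groups by edgeR 4.0.16 (glmQLFit with robust estimation, glmQLFTest, R 4.3.3), with Benjamini-Hochberg adjustment over all genes tested. A run of the fit on simulated counts held no replicate that deviated as wild-type replicate I did. It therefore says nothing of the calls that depend on that replicate. The 185 mating-type dependent genes listed by the study were tested but not counted, which left 7561. The SE is that of the log2 fold change. Genes were named when ranked 1 to 10, when just inside or outside the boundary, when among the 3 largest changes in each direction at an adjusted p of at most 0.05 in a comparison, when they hold a symbol or are named by the study in a group described, and when they are *mus-52*, qPCR references or stage markers. NCU16635, *cyc-1*, *nit-3* and *crp-10* were shown by library after their values were seen, and so were the counts by replicate number. NCU00811, the steadiest of all, NCU11337 and *hsp98* were also singled out after that. Alternatives were DESeq2 1.42.0, RLE factors or column totals, other filters, the 6 libraries of a comparison, a replicate block, mating-type genes kept, and libraries left out.

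Over all tested genes, same-numbered wild-type libraries in low- and high-Pi deviated together from their group means (correlations of 0.357, 0.210 and 0.337). Among the 100 genes, 69 went the other way in replicate I, above in low-Pi and below in high-Pi. The labels give no shared batch. The main fit did not pair libraries, and a replicate block was run only as an alternative. For the *mus-52*-labelled libraries the correlations were 0.290, 0.0945 and 0.133, and between the strains they were −0.134 to −0.0172. The depth of 17574263 to 56152963 counts left counting error small for all 100 genes.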

Additional observations from a re-analysis of the deposited data

Results flagged for a closer look

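NCU04583 was marked because its response to high-Pi differed between the strains (interaction −1.70, adjusted p = 0.0348, edgeR's quasi-likelihood test). *inl* and *pep* were marked because every high-Pi library lay below every low-Pi library in the wild type and above it in the *mus-52*-labelled libraries. Their interactions were 1.04 (adjusted p = 0.133) and 0.86 (adjusted p = 0.163, edgeR), so neither difference passed the test with all libraries, and without wild-type replicate I they were 0.87 (adjusted p = 0.00503) and 0.62 (adjusted p = 0.0119).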

How the results depend on the processing

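Between the strains, *for*, *hsp70-1* and *ubi* in both media, NCU01439, *arg-3* and NCU01633 in low-Pi and *rap-1* and *crp-15* in high-Pi kept their sign in the alternatives run. For the medium in the wild type and for the interaction, the medians of the 99 genes turned without wild-type replicate I.

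For the medium, leaving out replicate I of all 4 groups gave 45 higher and 3 lower in the wild type (median log2 fold change 0.36) and 12 and 3 in the *mus-52*-labelled libraries. Leaving it out of the wild type alone gave 45 and 3, and 22 and 4, and the 6 libraries alone gave 21 and 3 for the *mus-52*-labelled libraries. Without wild-type replicate I, 7.09% and 8.66% of all genes were called higher and lower in the wild type. In the *mus-52*-labelled libraries these shares were 15.9% and 16.9%. For the interaction, replicate I left out of all groups gave 8 higher and 30 lower (median −0.30). Left out of the wild type it gave 9 and 24, against 12.2% and 12.9% of all genes. DESeq2 gave 2 higher, and single libraries left out 0 to 1 higher. With mating-type genes kept, 1 gene (NCU04583) was lower for the *mus-52*-labelled libraries and for the interaction, by either threshold.

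Between strains in low-Pi, genes at an adjusted p of at most 0.05 were 5 higher and 6 lower, against 17.7% and 19.9% of all genes. They became 66 and 20 without wild-type replicate I, against 36.6% and 35% of all genes. Without replicate I of all groups they were 69 and 18, and with single libraries left out 3 to 20 and 3 to 11. The lower genes were 13 with DESeq2, 10 with RLE factors and 10 with at least 10 counts in every library. DEGs were 0 higher and 1 lower. They became 1 and 4 without replicate I of the wild type or of all groups, 0 to 1 and 1 to 4 with single libraries left out, and 1 higher with column totals.

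In high-Pi the 12 higher genes became 32 with column totals, 4 with the replicate block, 6 with the 6 libraries alone, 49 and 51 without replicate I of the wild type or of all groups, and 3 to 12 with single libraries left out. The 2 lower genes became 17 and 15 without replicate I, and 1 to 7 with single libraries left out. Of all genes 23.2% were called higher and 24.5% lower with all libraries, and 34.7% and 35.3% without wild-type replicate I. The 2 DEGs that were lower became 0 to 2 with single libraries left out. They were 0 without wild-type high-Pi replicate II or III and 1 without any *mus-52*-labelled library. The adjusted p alone gave 5 and 6 in low-Pi and 12 higher in high-Pi. The replicate block gave no call for the medium and left the number of DEGs unchanged. In low-Pi it gave 5 lower genes. The cause of these changes was not tested.

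Shares of counts were 20.2%, 18.8%, 24.8% and 26.5% for 50 genes and 43.3%, 40.5%, 49.1% and 51.2% for 200 genes. The list kept 99 genes on the TMM scale, 94 by the minimum over libraries, 91 by the mean of group means and 97 without wild-type replicate I, where *nit-3*, NCU03302 and *for* left.

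The wild-type spread was wide, with replicate I far from the others, and it entered every test with all libraries. Adjusted p without that replicate rest on a choice made after its distance was seen. With 3 libraries a group, a gene that misses the threshold is not shown to be equal. Genes with several annotated transcripts were hardly counted.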
